A study of Homo sapiens with 6 samples.

Results

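The 45 genes described here act in DNA replication and in the passage from G1 into S phase, and they were taken by symbol, from a list set with earlier results of these data known, out of a count table of 28008 gene symbols. All 45 had an entry, and 44 had enough counts in enough libraries to be tested. RNA-seq was performed on NCI-H660 (H660) cells, an established line of neuroendocrine prostate cancer (NEPC). Per the series record, cells of both groups carried the same puromycin-selected pLKO-tet vector with 1 short hairpin RNA (shRNA) against MUC1, which doxycycline (DOX) switches on. The DOX-negative group (n = 3) received 0.1% DMSO and the DOX-positive group (n = 3) received DOX at 500 ng/ml for 7 days. No library of cells with another hairpin, or with DOX and no hairpin, was used here, so effects of losing MUC1, of this hairpin and of DOX itself cannot be told apart.

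In late G1, D-type cyclins with CDK4 or CDK6 and then cyclin E with CDK2 phosphorylate the retinoblastoma protein, which releases E2F factors. E2F factors switch on the genes that load the MCM helicase at origins, the subunits that start it, the polymerases and clamps that copy DNA, and the enzymes that supply deoxynucleotides. NEPC cells have often lost RB1 function, and genes of this programme are then high. Mitosis genes are switched on later in the cycle, largely by MYBL2 and FOXM1 complexes, and were kept as a separate list.

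Total counts ranged from 47620696 to 74061121 per library. MUC1, the gene targeted by the hairpin, stood at 88.2, 90.2 and 79.6 CPM (counts scaled for the size and composition of the library) in DOX-negative replicates 1 to 3 and at 36.7, 37.2 and 29.9 CPM in DOX-positive replicates 1 to 3. Its log2 fold change was -1.32 (SE 0.096, adjusted p = 0.000173, edgeR's quasi-likelihood test with Benjamini-Hochberg adjustment over 17026 genes). All 6 neuroendocrine markers examined were at 1 TPM (a level per gene length, scaled to the same total in each library) or more, and all 5 markers of the androgen receptor axis were below 1 TPM, with KLK3 at 0 counts in every library. Of the 6 neuroendocrine markers, NCAM1 (-0.50, adjusted p = 0.0142) and INSM1 (-0.45, adjusted p = 0.0389) were called lower with DOX, and 0 were called higher. The 2 called lower amount to 33.3%, against 1.96% of all tested genes, and 2.91% of all tested genes were called higher. In all, 4 of the 6 had log2 fold changes below 0 and 2 above. Of 8 stromal and blood cell markers, 7 averaged below 1 TPM. Their summed level was 26.2 to 31.7 CPM in DOX-negative and 25.4 to 29.9 CPM in DOX-positive libraries, and CD3E was at 0 in every library. Only 4 of the 8 were tested. Of these 4, COL1A1, LUM and CD68 (75%) were called higher with DOX, against 2.91% of all tested genes. COL1A2, the most abundant marker of this list, had a difference of -0.71 on the log2 scale with no overlap between the groups and was not called (unadjusted p = 0.037, adjusted p = 0.203). The libraries are of a cultured line, and whether any reads came from other cells was not tested. DOX-positive replicate 2 stood apart by base composition, as described further on, and the counts of calls, the medians and the genes in which it was decisive are given with and without it.

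The replication and G1/S genes lay slightly higher with DOX, and 7 of them rose. These were the cyclins CCNE1 and CCND3, the kinase CDK2, the phosphatase CDC25A, the licensing factor CDC6, the transcription factor MYBL2 and the ribonucleotide reductase subunit RRM2, by 1.21-fold to 1.56-fold. A gene was called when its adjusted p was under 0.05. The 7 of 44 genes called higher amount to 15.9%, against 2.91% of all tested genes. No member was called lower, against 1.96% of all tested genes, and calls in either direction made up 4.87%. At an unadjusted p under 0.05, 17 members were higher and 1 was lower, where 11.6% and 9.53% of all tested genes fell on those sides. By DESeq2 and by limma-voom as well, 0 members were called lower.

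Most differences were small. The log2 fold change (DOX-positive over DOX-negative) was above 0 in 39 of the 44 genes and below 0 in 5, and its median was 0.13, against 0.00034 over all tested genes. The libraries of the groups did not overlap in 24 members, 23 of them higher and 1 lower with DOX. Over all tested genes 28.1% did not overlap, 14.8% higher and 13.3% lower. Together the 45 genes took 0.558% to 0.575% of all counts in DOX-negative libraries and 0.611% to 0.626% in DOX-positive libraries. These are bulk values, so more cells in S phase and more RNA of these genes per cell cannot be told apart.

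The number of calls depended on single libraries. Without DOX-negative replicate 3 none of the 44 genes was called, without DOX-negative replicate 2 CCNE1 was called, and without DOX-negative replicate 1 CCNE1 and MYBL2 were called. Leaving out DOX-positive replicate 3 left CCND3 and CCNE1, leaving out DOX-positive replicate 1 left 5 of the 7 (not CDK2 or RRM2), and leaving out DOX-positive replicate 2 gave 10. The median log2 fold change stayed between 0.12 and 0.14 in these 6 fits. Calls over all tested genes, 829 (4.87%) in the main fit, moved as well. Without DOX-negative replicate 1, 2 or 3 they were 633 (3.68%), 127 (0.737%) and 58 (0.337%). Without DOX-positive replicate 1, 2 or 3 they were 1035 (6.02%), 828 (4.80%) and 375 (2.17%). The calls nearest the threshold also ended with other scaling: CDK2 had an adjusted p of 0.0502 with RLE factors and 0.0605 with no factors, and RRM2 one of 0.0618 with no factors.

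**Figure D1:**
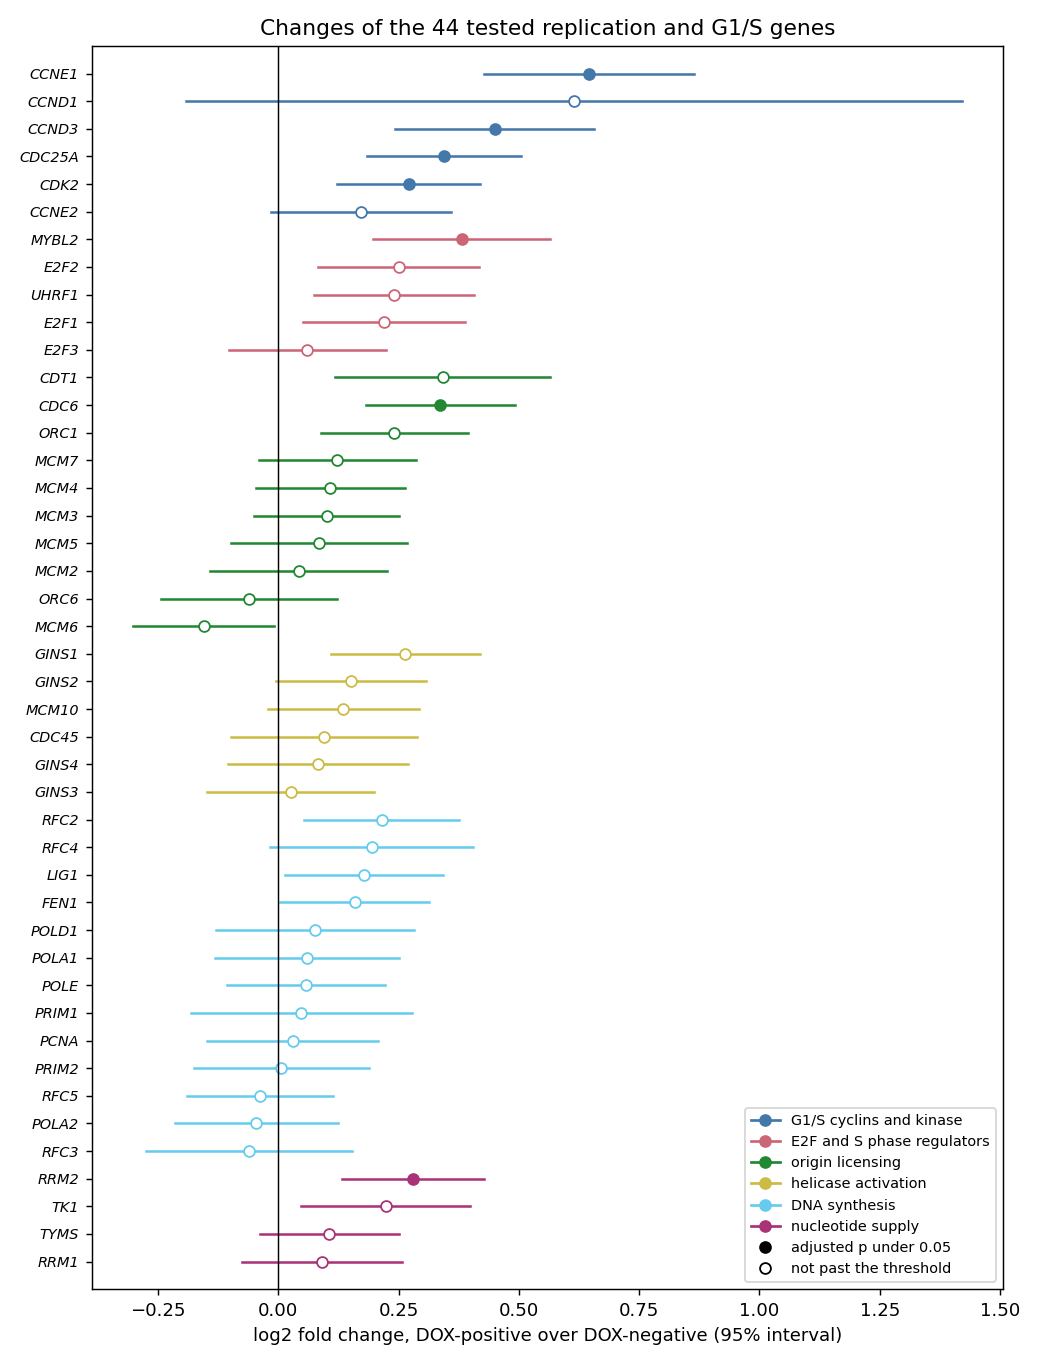
Log2 fold change of each of the 44 tested genes (horizontal axis, DOX-positive over DOX-negative, with 95% intervals), grouped and coloured by role, with filled points for genes called at an adjusted p under 0.05. The 7 filled points all lie right of 0, and 4 of them are G1/S cyclins, CDK2 or CDC25A.

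E2F factors bind short words such as TTTCCCGC, TTTCGCGC, TTTGCCGC and TTTGGCGC in promoters. These 4 words were searched on both strands in RefSeq promoter windows of GRCh38.p14, which run from 250 bases before to 50 bases after each annotated start. For 38 of the 45 genes a window was listed, and 21 of those 38 (55.3%) held at least 1 word, against 3.99% of 27305 genes. The word TTTGGCGC and the reverse of TTTCGCGC can overlap, so a single stretch can hold both. The CCAAT box, searched in the same way as CCAAT, was found for 23 of 38 (60.5%), against 39.7% of genes, and the E box CACGTG for 5 of 38 (13.2%), against 8.77%.

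Genes with and without an E2F word were among those called. Of the 6 called genes with a window, CDC25A and CDC6 held an E2F word and CCND3, CCNE1, MYBL2 and RRM2 did not. The median log2 fold change was 0.11 for the 21 genes with a word and 0.16 for the 17 without. A match is only a run of letters, and its absence from this window says nothing about binding of the factor.

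The 250 bases before the start are printed for 4 genes that show this. CCNE1 (chr19:29811741-29811990, plus strand) and MYBL2 (chr20:43666864-43667113, plus strand) rose and held no E2F word. CDC25A (chr3:48188418-48188667, minus strand) rose and held 1. MCM6 (chr2:135876444-135876693, minus strand) had the lowest value of all and held 4 matches, which lie in pairs over 2 identical stretches. Capitals mark the E2F words, and each line reads 5′ to 3′ on the strand of the gene (RefSeq, GRCh38.p14).
CCNE1: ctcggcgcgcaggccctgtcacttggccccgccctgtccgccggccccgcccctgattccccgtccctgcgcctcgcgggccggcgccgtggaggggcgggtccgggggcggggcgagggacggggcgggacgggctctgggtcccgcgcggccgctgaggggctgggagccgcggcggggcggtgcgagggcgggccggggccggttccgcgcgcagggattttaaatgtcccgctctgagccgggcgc
MYBL2: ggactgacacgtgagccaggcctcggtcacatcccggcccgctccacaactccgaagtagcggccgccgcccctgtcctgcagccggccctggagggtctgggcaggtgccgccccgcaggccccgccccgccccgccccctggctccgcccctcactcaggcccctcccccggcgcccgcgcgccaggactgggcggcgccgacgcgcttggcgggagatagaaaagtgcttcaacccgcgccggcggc
CDC25A: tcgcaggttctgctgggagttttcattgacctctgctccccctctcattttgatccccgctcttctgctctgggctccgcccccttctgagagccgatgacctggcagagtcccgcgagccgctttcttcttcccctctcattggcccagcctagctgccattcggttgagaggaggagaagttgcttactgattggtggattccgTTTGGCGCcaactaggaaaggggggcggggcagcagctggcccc
MCM6: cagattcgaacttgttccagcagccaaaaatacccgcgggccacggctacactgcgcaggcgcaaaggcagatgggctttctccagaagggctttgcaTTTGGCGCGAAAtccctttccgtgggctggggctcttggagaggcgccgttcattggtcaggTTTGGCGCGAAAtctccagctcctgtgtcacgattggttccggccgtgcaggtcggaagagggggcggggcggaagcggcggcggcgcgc

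Of the G1/S cyclins and their kinase, 4 of the 6 tested genes (66.7%) were called higher, against 2.91% of all tested genes. Their median log2 fold change of 0.40 was the highest of the 6 roles. CCNE1 encodes cyclin E1, which activates CDK2 at the end of G1. It stood at 17.6, 16.0 and 15.3 CPM in DOX-negative replicates 1 to 3 and at 22.5, 26.3 and 27.8 CPM in DOX-positive replicates 1 to 3. Every DOX-positive library lay above every DOX-negative library, and DOX-positive replicate 1 was the lowest of its group. The difference was 0.65 on the log2 scale (SE 0.10, 1.56-fold, adjusted p = 0.00698 by edgeR's quasi-likelihood test). No other tested member had a difference this large.

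The second cyclin E gene, CCNE2, was far more abundant, at 55.8 TPM ± 11.6 (SD, n = 6 libraries) against 6.24 TPM ± 1.76 for CCNE1. Its values were 242.6, 253 and 259.5 CPM without DOX and 286, 251 and 313 CPM with DOX. Here the groups overlapped, because DOX-positive replicate 2 lay below 2 DOX-negative libraries, and the difference of 0.17 (SE 0.086, 95% interval -0.015 to 0.36, adjusted p = 0.278) was not called. Without DOX-positive replicate 2 the difference of CCNE2 was 0.25 (adjusted p = 0.0529). The ratio of CCNE1 to CCNE2 in TPM was 0.104, 0.0911 and 0.0849 without DOX and 0.113, 0.151 and 0.128 with DOX. The ratios of the groups did not overlap (difference of 0.48 in log2, two-sided exact permutation p = 0.10, the smallest that 3 against 3 can give, and 0.20 after adjustment over 6 ratios). The highest ratio was that of DOX-positive replicate 2, which stood apart by base composition. GC content is 52.9% for CCNE1 and 36.9% for CCNE2. The other DOX-positive ratios also lay above all DOX-negative ratios.

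CDK2, the kinase partner of cyclin E, was at 189, 189.8 and 180.1 CPM without DOX and at 216, 226 and 232 CPM with DOX. The groups did not overlap, and the difference was 0.27 (SE 0.068, 1.21-fold, adjusted p = 0.044). CDC25A, the phosphatase that removes the inhibitory phosphates from CDK2, was at 43.8, 40.7 and 43.3 CPM without DOX and at 53.6, 54.2 and 54.5 CPM with DOX. The 3 DOX-positive values lay within 1 CPM of each other and above all DOX-negative values, a difference of 0.34 (SE 0.073, 1.27-fold, adjusted p = 0.0228).

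D-type cyclins, the partners of CDK4 and CDK6, were represented almost wholly by CCND3, at 4.72 TPM ± 1.00 (SD, n = 6). Its values were 21.8, 23.9 and 22.0 CPM without DOX and 28.3, 34.6 and 29.7 CPM with DOX. DOX-positive replicate 2 was the highest, and the groups did not overlap (difference of 0.45, SE 0.095, 1.37-fold, adjusted p = 0.0223). Without that library the difference was 0.36, and it was still called.

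CCND1 averaged 0.045 TPM and CCND2 0.036 TPM. CCND1 stood at 0.219, 0.372 and 0.231 CPM without DOX and at 0.410, 0.236 and 0.597 CPM with DOX. The groups overlapped, and the difference of 0.61 had a 95% interval from -0.19 to 1.42 (SE 0.37, adjusted p = 0.374), so a change in CCND1 was not detectable at this depth. CCND2 had 3, 4 and 117 counts in DOX-negative replicates 1 to 3 and 20, 3 and 1 in DOX-positive replicates 1 to 3. Most of its reads thus came from DOX-negative replicate 3, and too few libraries held enough of its counts for it to be tested in the main fit.

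**Figure D2:**
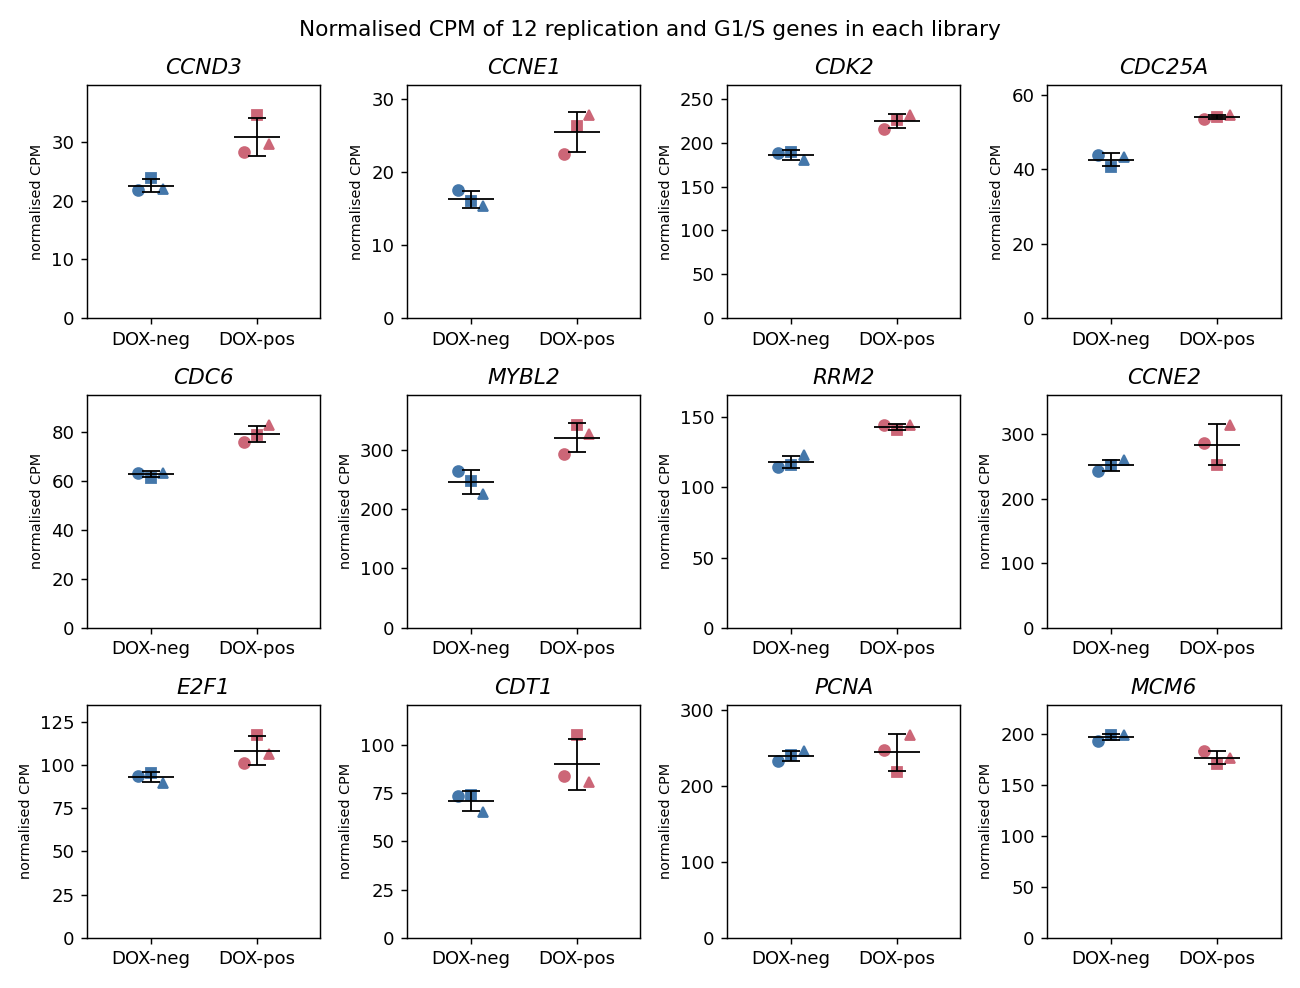
Normalised CPM (vertical axes, from 0) of 12 replication and G1/S genes in each library, with circles, squares and triangles for replicates 1, 2 and 3, blue for DOX-negative and red for DOX-positive, and the mean with its SD (n = 3). The 7 called genes, in the first panels, show no overlap between the groups, CCNE2 and PCNA overlap, and MCM6 is lower in all DOX-positive libraries.

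Among the E2F factors and S phase regulators, 1 of 5 (20%) was called higher, against 2.91% of all tested genes. MYBL2, an E2F target that itself drives later cell cycle genes, was at 265, 247 and 225 CPM without DOX and at 292.7, 341 and 326 CPM with DOX. The groups did not overlap (difference of 0.38, SE 0.085, 1.30-fold, adjusted p = 0.0271). FOXM1, with which MYBL2 acts on mitosis genes, differed by 0.07 (SE 0.078, adjusted p = 0.652). The ratio of MYBL2 to FOXM1 in TPM was 3.97, 3.82 and 3.63 without DOX and 4.17, 4.77 and 5.28 with DOX, again with no overlap (difference of 0.31 in log2, exact permutation p = 0.10, 0.20 adjusted over 6 ratios).

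The activating factors E2F1 and E2F2 had smaller differences than any called gene and did not pass the threshold. E2F1 was at 93.9, 95.2 and 89.9 CPM without DOX and at 101, 117 and 106 CPM with DOX. E2F2 was at 65.7, 61.1 and 61.1 CPM without DOX and at 70.1, 79.6 and 73.9 CPM with DOX. In both genes the groups did not overlap and DOX-positive replicate 2 was the highest, and the differences were 0.22 for E2F1 (SE 0.077, adjusted p = 0.124) and 0.25 for E2F2 (SE 0.077, adjusted p = 0.0822). Without that library the differences were 0.16 for E2F1 and 0.20 for E2F2.

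E2F3, the third activating factor, was at 99.7, 98.8 and 97.5 CPM without DOX and at 99.9, 97.3 and 111 CPM with DOX. Its groups overlapped, and its difference was 0.06 (SE 0.075, 95% interval -0.10 to 0.22, adjusted p = 0.699). The ratio of E2F1 to E2F3 was not separated between the groups (difference of 0.16 in log2, exact permutation p = 0.20, 0.30 adjusted over 6 ratios). It was highest, at 2.39, in DOX-positive replicate 2, and GC content is 62.5% for E2F1 and 45.2% for E2F3. UHRF1, which guides maintenance methylation at the replication fork, ran from 298.5 to 323 CPM without DOX and from 353 to 400.4 CPM with DOX (difference of 0.24, SE 0.076, adjusted p = 0.0915).

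Origin licensing is the loading of the MCM2 to MCM7 ring onto DNA by the origin recognition complex with CDC6 and CDT1. Of its 10 genes the main edgeR fit called 1 (10%), CDC6, against 4.87% of all tested genes. DESeq2 called CDC6, CDT1 and ORC1, against 6.00% of all genes it fitted. CDC6 was at 63.4, 61.3 and 63.4 CPM without DOX and at 75.9, 78.8 and 82.7 CPM with DOX. No library of 1 group reached the other group (difference of 0.34, SE 0.071, 1.26-fold, adjusted p = 0.0223). Its loading partner CDT1 was at 73.6, 74.1 and 65.2 CPM without DOX and at 84.1, 105 and 80.6 CPM with DOX. CDT1 differed by as much, 0.34, but DOX-positive replicate 2 lay well above the other DOX-positive libraries, and the larger SE of 0.10 left it at an adjusted p of 0.0772 by edgeR (0.0324 by DESeq2). Without that library the difference of CDT1 was 0.22. Of the 6 ratios compared, CDC6 to CDT1 and CCND1 to CCND3 had an exact permutation p of 1.

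ORC1, the origin recognition subunit that varies over the cell cycle, was at 48.4, 48.1 and 47.1 CPM without DOX and at 56.0, 56.7 and 57.0 CPM with DOX. Its libraries were tightly grouped and did not overlap, and its difference of 0.24 (SE 0.070) had an adjusted p of 0.0699 by edgeR (0.0369 by DESeq2). ORC6, which joins the same complex, was at 15.2 to 15.8 CPM without DOX and at 14.1 to 15.3 CPM with DOX (difference of -0.06, SE 0.084, adjusted p = 0.734).

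The 6 subunits of the MCM ring were all abundant, and none was called. MCM2 was at 352, 358 and 341 CPM without DOX and at 335, 407 and 341 CPM with DOX. DOX-positive libraries held both its lowest and its highest value (difference of 0.04, SE 0.085, 95% interval -0.14 to 0.23, adjusted p = 0.822). MCM3, MCM4, MCM5 and MCM7 had differences from 0.08 to 0.12, with adjusted p from 0.383 to 0.616.

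MCM6 was the exception in direction among the ring subunits. It was at 193, 199 and 199 CPM without DOX and at 183.5, 171 and 176 CPM with DOX. All DOX-positive libraries lay below all DOX-negative libraries, and the difference of -0.15 (SE 0.067, unadjusted p = 0.040, adjusted p = 0.212) was not called. In TPM, MCM3 was the most abundant ring subunit in every library and stood 3.42-fold to 3.81-fold above the least abundant. The least abundant was MCM5, except in DOX-positive replicate 2, where it was MCM6.

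Helicase activation adds CDC45 and the GINS complex to the loaded ring, with help from MCM10. In the main edgeR fit none of its 6 genes was called, against 4.87% of all tested genes. With an unadjusted p under 0.05, 1 (GINS1) was higher, against 11.6% of all tested genes. DESeq2 called 1 and limma-voom 0, where they called 6.00% and 3.97% of all genes. GINS1 was at 67.0, 65.5 and 65.3 CPM without DOX and at 76.2, 77.8 and 83.5 CPM with DOX. The groups did not overlap, and its adjusted p of 0.0553 (difference of 0.26, SE 0.071) was the closest to the threshold among the genes that were not called. DESeq2 called it. The other subunits of the same complex differed by 0.15 (GINS2), 0.03 (GINS3) and 0.08 (GINS4), MCM10 by 0.14 and CDC45 by 0.09, with adjusted p from 0.252 to 0.891.

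DNA synthesis, the largest role with 13 genes, had the lowest median log2 fold change, 0.06. In the main edgeR fit 0 were called, against 4.87% of all tested genes, and DESeq2 and limma-voom called 0. With an unadjusted p under 0.05, 3 of the 13 were higher and 0 lower, against 11.6% and 9.53% of all tested genes. Those 3 were the clamp loader subunit RFC2 (difference of 0.21, adjusted p = 0.118), the DNA ligase LIG1 (0.18, adjusted p = 0.20) and the flap endonuclease FEN1 (0.16, adjusted p = 0.226). In each of them the groups did not overlap.

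PCNA, the sliding clamp and the most abundant of the 45 genes at 102 TPM ± 19.0 (SD, n = 6), was at 232, 240.3 and 246 CPM without DOX and at 247, 218 and 267 CPM with DOX. DOX-positive replicate 2 held its lowest value, and the other DOX-positive libraries lay above all DOX-negative libraries. The difference of PCNA was 0.03 (SE 0.082, 95% interval -0.15 to 0.21, adjusted p = 0.878). The polymerase alpha and primase genes POLA1, POLA2, PRIM1 and PRIM2 differed by -0.05 to 0.06. In POLA1 and PRIM1 as well, DOX-positive replicate 2 lay below and the other DOX-positive libraries above all DOX-negative libraries. POLD1 and POLE, the catalytic subunits of the replicative polymerases delta and epsilon, differed by 0.08 and 0.06. Of the remaining clamp loader subunits, RFC4 differed by 0.19 and RFC3 and RFC5 by -0.06 and -0.04. RFC4 was called higher without DOX-positive replicate 2.

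Nucleotide supply had 1 gene of 4 (25%) called higher, against 2.91% of all tested genes. RRM2, the small subunit of ribonucleotide reductase that is made in S phase, was at 115, 116 and 123 CPM without DOX and at 144, 141 and 144 CPM with DOX. The groups did not overlap (difference of 0.28, SE 0.068, 1.21-fold, adjusted p = 0.0379). RRM1, the large subunit of the same enzyme, was at 225, 229 and 227 CPM without DOX and at 248, 219 and 258 CPM with DOX. Its groups overlapped because DOX-positive replicate 2 lay below all DOX-negative libraries, while the other DOX-positive libraries lay above them. The difference of RRM1 was 0.09 (SE 0.076, adjusted p = 0.544). The ratio of RRM2 to RRM1 in TPM was 0.528 to 0.565 without DOX and 0.582 to 0.669 with DOX (difference of 0.19 in log2, exact permutation p = 0.10, 0.20 adjusted over 6 ratios).

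TYMS, which makes thymidylate, was at 173, 171 and 173 CPM without DOX and at 191.5, 185 and 181 CPM with DOX. The groups did not overlap, but the difference of 0.11 (SE 0.066, adjusted p = 0.396) was small. TK1, the thymidine salvage kinase, ran from 46.3 to 48.2 CPM without DOX and from 52.0 to 60.8 CPM with DOX (difference of 0.22, SE 0.081, adjusted p = 0.137).

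Of the 37 tested genes that were not called, 26 had a 95% interval that included 0. In 35 of them the interval lay within 0.5 on the log2 scale on either side of 0, and the median distance from the estimate to the end of the interval was 0.17. Differences beyond 0.5 were therefore outside the intervals of nearly all of these genes, whereas differences of the size seen in RRM2 or CDK2 often lay within them.

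The same values can be read library by library, which adds no separate evidence for the difference. The median deviation of the 44 genes from their own mean over 6 libraries was -0.06, -0.07 and -0.08 in DOX-negative replicates 1 to 3 and 0.06, 0.11 and 0.11 in DOX-positive replicates 1 to 3 (log2 CPM). Over all tested genes the medians lay between -0.00058 and 0.016. DOX-positive replicates 2 and 3 each held the highest value of 18 genes, and DOX-negative replicate 3 held the lowest value of 15. In DOX-positive replicate 2, however, 9 genes had their lowest value. Such counts were not taken over all tested genes, so these describe the 44 genes only.

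**Figure D3:**
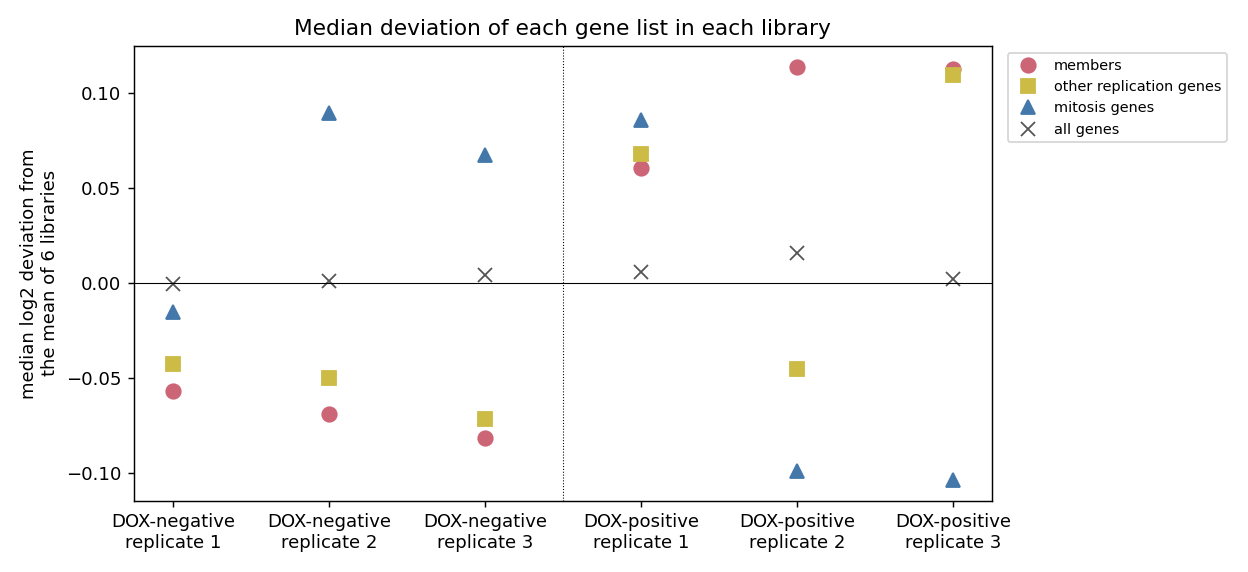
Median log2 deviation from the mean of the 6 libraries (vertical axis) of the 44 replication and G1/S genes (members), 36 other replication genes, 35 mitosis genes and all tested genes, for each library. The 44 genes lie below 0 in all DOX-negative and above 0 in all DOX-positive libraries, while the other replication genes and the mitosis genes do not separate the groups.

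That library differed from the others of its group by base composition. Across the 44 genes, the difference between DOX-positive replicate 2 and the mean of DOX-positive replicates 1 and 3 rose with the GC content of the transcript, with Pearson's r = 0.67 and Spearman's rho = 0.88. These are points from the same libraries and describe them only. Measured in the same way, r was -0.65 for DOX-positive replicate 1 and -0.53 for DOX-positive replicate 3. Each of these was compared with a mean that includes DOX-positive replicate 2. For DOX-negative replicates 1 to 3 r was 0.27, 0.041 and -0.33. Across all 15830 tested genes with a GC value r was 0.62. Genes of low GC content such as PRIM1 (40.7%, -0.41 in log2), RFC4 (45.4%, -0.35) and POLA1 (42.9%, -0.30) were low in this library, and genes of high GC content such as CDT1 (64.9%, 0.35) and MCM2 (58.1%, 0.27) were high.

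Offsets for GC content and gene length, fitted in each library, raised the number of called genes from 7 to 15. All 7 kept their call, and CCNE2, CDT1, E2F1, E2F2, GINS1, ORC1, RFC2 and UHRF1 joined them. The same offsets raised the calls over all genes from 829 to 2151, or 12.6% of those tested. Without DOX-positive replicate 2, the called genes were the same 7 with GINS1, ORC1 and RFC4.

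**Figure D4:**
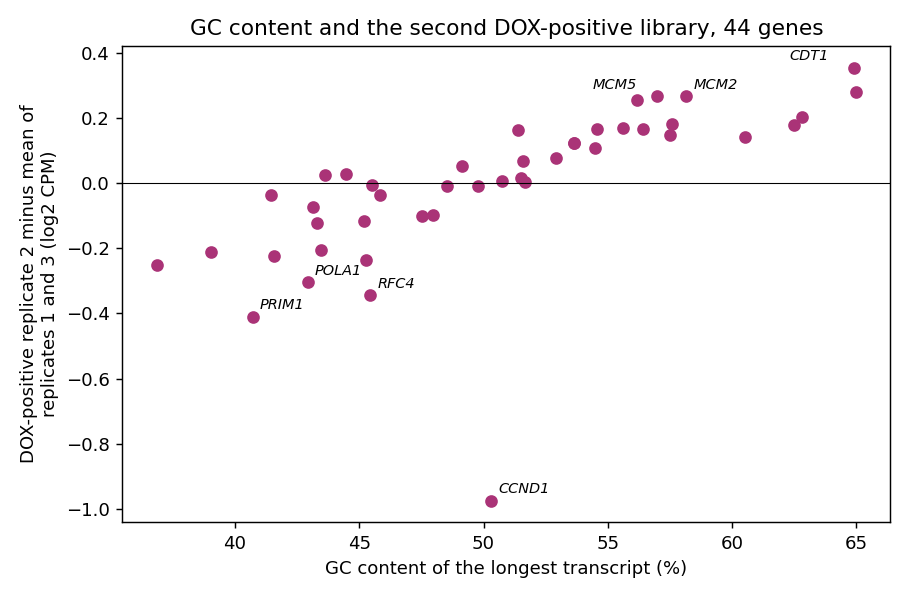
GC content of the longest transcript in percent (horizontal axis) against the log2 CPM of DOX-positive replicate 2 minus the mean of DOX-positive replicates 1 and 3 (vertical axis), with a point for each of the 44 tested genes. Points rise from PRIM1 and POLA1 at low GC content to CDT1 at 64.9%, and CCND1, a gene with few counts, lies apart.

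The deposited TPM values gave a similar median but fewer calls. A limma fit on log2(TPM + 1) called 0 of the 43 genes it tested (30 genes in all, of which 43.3% were higher, against 59.8% of the edgeR calls), with a median of 0.14. Over all genes in that fit the median was 0.023. RN7SK took 21.2% to 27.1% of the TPM, and in DOX-negative replicate 3 SNORD3A took 34.5%. After scaling the TPM for composition, CCND3, CCNE1, CDC25A and CDC6 were called among the 43 genes, against 305 (2.61%) of all genes tested there.

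Replication genes outside the 45 also had a median above 0. Of 36 other genes of the fork, the checkpoint and chromatin assembly, 27 had values above 0 and 9 below, with a median log2 fold change of 0.13, and 2 (5.56%) were called higher, against 2.91% of all tested genes. ASF1B, a histone chaperone that follows the fork, was at 122, 124 and 112 CPM without DOX and at 153, 179 and 158 CPM with DOX (difference of 0.45, SE 0.081, 1.37-fold, adjusted p = 0.0123). RPA2, a subunit of the protein that coats single-stranded DNA, lay between 64.5 and 68.3 CPM without DOX and between 77.2 and 84.8 CPM with DOX (difference of 0.29, SE 0.073, adjusted p = 0.0455). The call of RPA2 ended with RLE factors (adjusted p = 0.0526) and with no factors (0.0715). All 11 of the 36 genes with an unadjusted p under 0.05 were higher, where 11.6% of all tested genes were higher and 9.53% lower.

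Among 22 regulators of RB, E2F and CDK activity, 2 (9.09%) were called, both higher, against 2.91% of all tested genes, and the median was -0.01. E2F7, an atypical E2F that represses E2F targets and is itself a target, was at 29.1, 27.2 and 27.2 CPM without DOX and at 43.6, 41.0 and 47.2 CPM with DOX (difference of 0.66, SE 0.083, 1.58-fold, adjusted p = 0.00247). CDKN1A, which encodes the CDK2 inhibitor p21, was at 445, 418 and 370 CPM without DOX and at 521, 659 and 717 CPM with DOX. The groups did not overlap in either gene, and CDKN1A differed by 0.62 (SE 0.11, 1.54-fold, adjusted p = 0.0127). Without DOX-negative replicate 2, DOX-negative replicate 3 or DOX-positive replicate 2 the adjusted p of CDKN1A was 0.0527, 0.0941 and 0.0564.

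RB1 itself was low, at 1.94 TPM ± 0.387 (SD, n = 6), with a difference of -0.25 (adjusted p = 0.299). CDKN2A, which is often high where RB1 function is lost, averaged 37.1 TPM and differed by 0.01 (adjusted p = 0.973). CDK4 differed by 0.08 (adjusted p = 0.663) and CDKN1B by 0.08 (adjusted p = 0.618). CDK6 averaged 0.233 TPM, and its difference of 0.57 (SE 0.16) had an adjusted p of 0.0613. In 3 of the 22 regulators the groups did not overlap and DOX-positive libraries were lower, against 13.3% of all tested genes. In 6 they did not overlap and were higher, against 14.8%. The 3 lower ones were not called in the main edgeR fit: the CDK inhibitor CDKN1C (-0.39, adjusted p = 0.0817), the RB relative RBL1 (-0.28, adjusted p = 0.10) and E2F5 (-0.25, adjusted p = 0.101). DESeq2 called CDKN1C lower, and CDKN1C and RBL1 were called lower with the offsets for GC content and gene length. With no filter, with replicate number as a covariate, and without DOX-positive replicate 1 or 2, 1 of the 22 was called lower.

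Most mitosis genes lay on the other side of 0. Of 35, the main edgeR fit, DESeq2 and limma-voom called 0, where they called 4.87%, 6.00% and 3.97% of all genes. The log2 fold change was below 0 in 28 and above 0 in 7, and the median was -0.12, against 0.13 for the replication and G1/S genes. At an unadjusted p under 0.05, 3 of the 35 were lower and 0 were higher, against 9.53% and 11.6% of all tested genes. The 3 were the cyclin CCNB1 (-0.22, adjusted p = 0.164) and the kinases AURKA (-0.24, adjusted p = 0.166) and NEK2 (-0.23, adjusted p = 0.187). The largest value below 0 was that of the checkpoint gene MAD2L1 (-0.28, adjusted p = 0.251). The difference between the lists was not tested.

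Library by library, the mitosis genes did not separate the groups. Their median deviation was -0.01, 0.09 and 0.07 in DOX-negative replicates 1 to 3 and 0.09, -0.10 and -0.10 in DOX-positive replicates 1 to 3, so DOX-positive replicate 1 lay with the upper DOX-negative libraries. These genes have a median GC content of 43.2%, and their level in DOX-positive replicate 2 followed GC content (r = 0.88 over 35 genes). Without that library their median log2 fold change was -0.03, while that of the replication and G1/S genes was 0.14. Without DOX-positive replicate 1 the median of the mitosis genes was -0.20, and CCNB1 and AURKA were called lower. With the offsets for GC content and gene length it was -0.08.

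**Figure D5:**
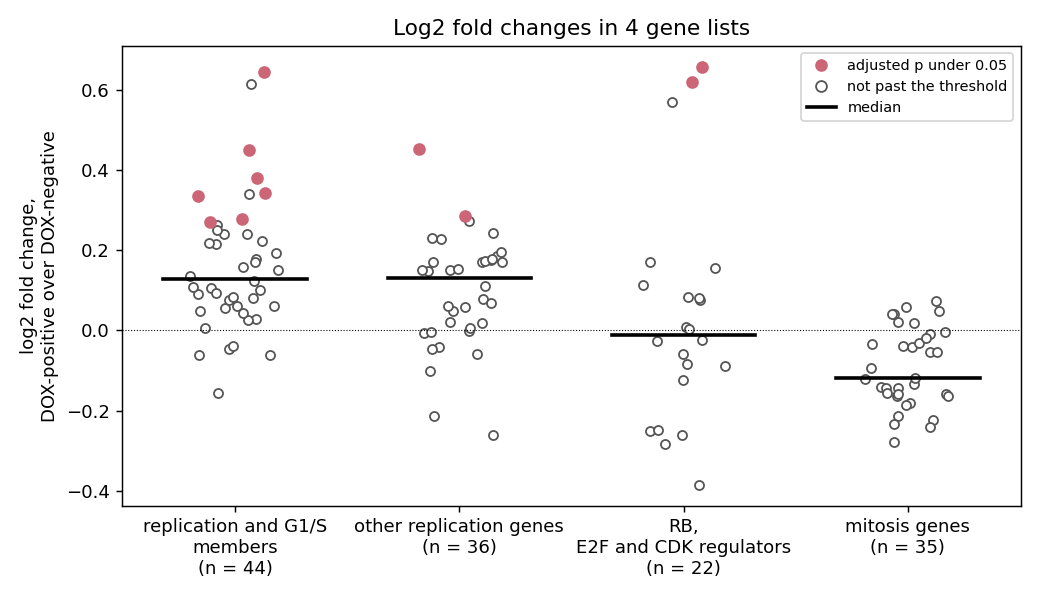
Log2 fold change (vertical axis, DOX-positive over DOX-negative) of each tested gene in 4 lists, with filled points for genes called at an adjusted p under 0.05 and a bar at the median. The replication lists centre near 0.13, the regulators near 0 and the mitosis genes at -0.12.

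Some of these genes share sequence or position with others. In the RefSeq annotation of GRCh38.p14, CCNE1 (chr19:29811991-29824312), CDK2 (chr12:55966830-55972789), CDC6 (chr17:40287879-40304657) and MYBL2 (chr20:43667114-43716482) overlap no other annotated gene. CCND3 overlaps 2 entries, CDC25A 3 and RRM2 3, and CCND3 and RRM2 also have pseudogene copies elsewhere (2 and 3). MCM7 hosts 3 microRNA genes, TYMS overlaps ENOSF1 and TYMSOS, and PCNA has 4 pseudogenes. The strand setting of the counting is not given in the sources used here, so reads of overlapping genes on opposite strands may be mixed in those values.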

How the data were processed

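Total RNA of H660 cells was made into stranded mRNA libraries, per the labels, in 3 cultures per group. The authors deposited raw read counts per gene symbol, aligned with STAR to GRCh38, and TPM, in which counts are divided by gene length and scaled to the same total. Versions, annotation and strand setting are not given in the sources used here. The sample titles gave each library's group and replicate number. Totals of 47620696 to 74061121 counts gave a biological coefficient of variation of 9.58%, and libraries of 1 group differed beyond counting noise (chi-square of 15.6 to 95.5 per degree of freedom).

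Counts were filtered with filterByExpr, scaled by TMM and compared between groups with the quasi-likelihood test of edgeR 4.0.16 (R 4.3.3, robust fit, no covariate), with Benjamini-Hochberg adjustment over 17026 genes. CPM are TMM-scaled and compare libraries, and TPM compare genes. Intervals are 95% and were derived from the F statistic. DESeq2 1.42.0, limma 3.58.1, other scaling and filters, a replicate block, GC and length offsets and fits without each library were alternatives. GC content was found for 93.0% of tested genes.

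For the genes described by role, values in each library are given for every called gene, cyclins, E2F factors and other leading genes. Called genes are named from each further list, some of them without values in each library. The genes and lists were chosen with earlier results of these data known.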

Additional observations from a re-analysis of the deposited data

How the results depend on the processing

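In all 19 alternatives 0 of the replication and G1/S genes were called lower, and their median log2 fold change stayed between 0.11 and 0.14. Against 7 genes called higher, 15 were called with GC content and gene length offsets, 4 with limma on log2(TPM + 1) after composition scaling (chosen after seeing the data), and 0 in the 3 TPM fits without scaling (pseudocounts of 1 and 0.1, and no filter). All genes called were 829, against 1354 with DESeq2, 2151 with the offsets, 30, 35 and 0 in the unscaled TPM fits and 305 in the scaled one. Other replication genes called were 2, against 7 with the offsets, 0 in the unscaled TPM fits and 1 with RLE factors, no factors, limma-voom, the scaled TPM and the replicate block. Regulators called were 2, against 6 with the offsets, 0 in the unscaled TPM fits and 4 with no filter, DESeq2 and the replicate block. The causes were not tested.

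Replicate numbers did not pair the samples (correlations of -0.34, 0.011 and -0.12 between same-numbered libraries). A replicate block called 6 of the 44 genes, without CDK2 (adjusted p = 0.0602) and RRM2 (0.0523) and with CDT1 (0.0252), and 998 genes in all. Scaled TPM left out CDK2, MYBL2 and RRM2.

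Leaving out 1 library at a time gave 0 to 10 genes called higher, 58 to 1035 of all genes, 0 to 3 other replication genes, 1 to 4 regulators and 0 to 2 mitosis genes. Genes near 0 then changed sign: E2F3 (-0.00057 to 0.10), MCM2 (-0.049 to 0.094), MCM5 (-0.0067 to 0.13), GINS3 (-0.0039 to 0.060), POLA1 (-0.0097 to 0.16), PRIM1 (-0.047 to 0.17), PRIM2 (-0.060 to 0.080), POLD1 (-0.019 to 0.16), PCNA (-0.039 to 0.11), RFC3 (-0.13 to 0.0092) and CDKN2A (-0.12 to 0.092). MCM2 was also at -0.0090 with the offsets, PRIM2 at -0.0028 with no factors, -0.00049 with at least 50 counts and -0.0042 with scaled TPM, and CDKN2A at -0.0052 with no factors, -0.0041 with limma-voom, -0.0021 with the replicate block, -0.0082 with scaled TPM and -0.058 with the offsets.

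The limits are those of 3 libraries per group of 1 line with 1 hairpin. P values measure the spread between cultures. The smallest called difference was 0.27 on the log2 scale, and genes with few counts such as CCND1 and CCND2 allow no call at this depth.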
